A study of Mus musculus with 27 samples.

Results

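The 10 genes described here encode the nuclear receptors and coactivators that set the capacity for oxidative metabolism in the heart: the PPAR receptors Ppara, Ppard and Pparg, their dimer partners Rxra, Rxrb and Rxrg, the estrogen-related receptors Esrra and Esrrg, and the PGC-1 coactivators Ppargc1a and Ppargc1b. They were chosen by symbol, after the Ensembl identifiers of the count table were matched to GENCODE M21, and all 10 were found among 55487 genes. Gene expression was measured by RNA sequencing of mouse ventricle in 27 libraries of 7 groups, to follow postnatal maturation and the effects of too little or too much MBNL1, which binds RNA and regulates splicing and transcript stability. At postnatal day 60 (P60) the groups were 5 libraries labelled KO, for loss of MBNL1 function, and 4 controls (Ctl) at 7 days after knockout, and 4 labelled KO and 3 controls at 14 days. At P7 there were 4 libraries of the MBNL1 gain-of-function genotype (Tg) and 3 controls, and at P1 there were 4 controls. The time after knockout is also attached to the P60 controls. The sources used here do not give the means of knockout, the deleted stretch of Mbnl1, the promoter driving the transgene, or animal sex. The labels also do not state that each library is a different animal, so the p-values reflect the spread between libraries, which may be technical.

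PPAR receptors bind DNA as pairs with an RXR receptor, are activated by fatty acids and their derivatives, and switch on genes for the uptake and oxidation of fat. Estrogen-related receptors bind single extended sites, need no estrogen, and act on genes of the citric acid cycle, the respiratory chain and energy transfer. PGC-1 coactivators bind both receptor classes, and PGC-1 alpha, the product of Ppargc1a, is known as an inducible driver of mitochondrial biogenesis. After birth the heart moves from glycolysis towards oxidation of fatty acids, and these receptors are known for their part in that change.

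Upstream sequence is shown for the 2 members with the largest differences between libraries labelled KO and controls, Ppargc1a and Rxrg, which also had the largest differences between P7 and P60 controls. RefSeq windows on GRCm38.p6 were available for 9 of the 10 members, in 17 windows of 300 bases, and Ppargc1b was not matched. The lines give the 250 bases before a transcript start, 5′ to 3′ on the strand of the gene. Ppargc1a is shown from chr5:51567726-51567975 on the minus strand, with the core of the cAMP response element, TGACGT, in capitals as its complement ACGTCA, since it lies on the opposite strand at 50 bases before the start. Rxrg is shown from chr1:167618015-167618264 on the plus strand, the second of its start sites, with the nuclear receptor core hexamer AGGTCA in capitals at 88 bases before the start. The window of its first start site, from 167598112 to 167598411, is not shown and held no such hexamer on either strand.
Ppargc1a: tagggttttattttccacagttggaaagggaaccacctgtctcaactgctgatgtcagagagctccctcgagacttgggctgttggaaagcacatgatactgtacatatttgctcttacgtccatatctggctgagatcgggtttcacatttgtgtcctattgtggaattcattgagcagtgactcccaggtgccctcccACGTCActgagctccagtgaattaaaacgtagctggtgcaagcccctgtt
Rxrg: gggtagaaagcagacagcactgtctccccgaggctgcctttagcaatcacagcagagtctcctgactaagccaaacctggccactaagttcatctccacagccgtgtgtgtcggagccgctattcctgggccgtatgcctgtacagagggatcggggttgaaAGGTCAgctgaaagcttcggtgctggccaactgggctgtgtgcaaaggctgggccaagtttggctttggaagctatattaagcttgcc
The hexamer AGGTCA was found on either strand in 4 of the 17 windows, which belong to Pparg, Rxra and Rxrg, and in 16.2% of 32544 promoters of the same length. The Rxra window from 27709042 to 27709341 on chromosome 2 held it on both strands, starting 87 and 48 bases before the start. The extended element TNAAGGTCA, which estrogen-related receptors recognise, and the direct repeat AGGTCANAGGTCA, which PPAR and RXR pairs recognise, both contain this hexamer. Neither was in any member's window, and they were in 1.28% and 0.0399% of all promoters. The letters TGACGT were searched for after the sequences had been seen, and 7.55% of all promoters hold it. A match describes letters in a window and nothing more.

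Total counts ran from 21929347 to 25675115 per library, and the smallest count of any of the 10 genes in any library was 52, for Rxrg at P1. Levels are given in CPM, the count relative to library size after scaling by trimmed mean of M values (TMM). Calls required an adjusted p below 0.05. Mbnl1 was higher in Tg (2934 to 4079 CPM) than in P7 controls (96.9 to 105). It had 219, 102, 167, 115 and 168 CPM in the libraries labelled KO at 7 days, against 146 to 153 in their controls, with no difference called (log2 fold change 0.05 ± 0.20 SE, adjusted p = 0.86). At 14 days it had 115 to 137 CPM in the libraries labelled KO against 151 to 170 in controls (log2 fold change -0.34 ± 0.09, adjusted p = 0.012). That call was lost under scaling by total counts, where the log2 fold change was 0.034 (adjusted p = 0.74), in a fit of all 27 libraries (adjusted p = 0.12) and without 14-day control library 5 (adjusted p = 0.062). Whether reads over a deleted part were counted is not given, so the gene-level count is a weak check of the label. Esr1, the estrogen receptor gene, was at 195 to 1955 CPM in the 9 libraries labelled KO and at 0.487 to 1.498 in the 7 controls of P60. What separates these groups beside MBNL1 cannot be told apart from the label. Among the libraries labelled KO at 7 days, libraries 1 and 5 had the lowest Esr1, at 234 and 195 CPM. Library 3 had 650 CPM and libraries 2 and 4 had 1893 and 1653, so Esr1 alone sets no clear split of libraries. The members' 7-day changes are also given without libraries 1 and 5. The summed level of 7 cardiomyocyte markers was 13733 to 28646 CPM in the libraries labelled KO at 7 days against 47806 to 51515 in controls, and 29242 to 34758 against 51838 to 56781 at 14 days. In bulk tissue, fewer cells of a type and less RNA per cell cannot be told apart.

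Across the groups, with TMM scaling, 9 of the 10 genes had their highest mean in a control group of P60, and Ppargc1b had it in the P1 controls. This order depends on the scaling. Under total count scaling Rxra, Rxrb, Esrra and Esrrg were lower at P60 than at P1 (log2 fold change -0.34, -0.51, -0.14 and -0.23). How many of all genes have their highest mean in a control group of P60 was not counted. Compared per kilobase of exon (RPKM), the most abundant transcript in adult control ventricle was Ppargc1a, at 78.4 ± 40.6 RPKM in the 7-day controls and 66.6 ± 32.5 in the 14-day controls (SD, n = 4 and 3). Rxrg followed in the 14-day controls with 39.8 ± 3.05 RPKM, close to Esrra with 38.0 ± 1.39. The order was reversed in the 7-day controls, with Rxrg at 35.6 ± 2.38 and Esrra at 38.5 ± 1.78. The lowest in the 14-day controls were Pparg (5.74 ± 0.66 RPKM), Ppargc1b (5.74 ± 1.55) and Esrrg (7.26 ± 0.60). Ppargc1a was also the member that varied most among adult controls. Its 7-day controls had 245, 448, 490 and 885 CPM and its 14-day controls 668, 406 and 244, a coefficient of variation of 51.8% and 48.8%, while that of Esrra was 4.62% and 3.67%. Adjacent groups in the order of levels often overlapped. For Ppara, the ranges of the P7 controls, the P1 controls and both groups labelled KO overlapped from one to the next, between 7.32 and 19.3 CPM, and the P60 controls began at 31.8. For Rxrg both groups labelled KO (at most 35.6 CPM) were separate from the P60 controls (74.5 CPM and above), and the P1 controls (at most 2.52) were separate from all other groups.

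**Figure D1:**
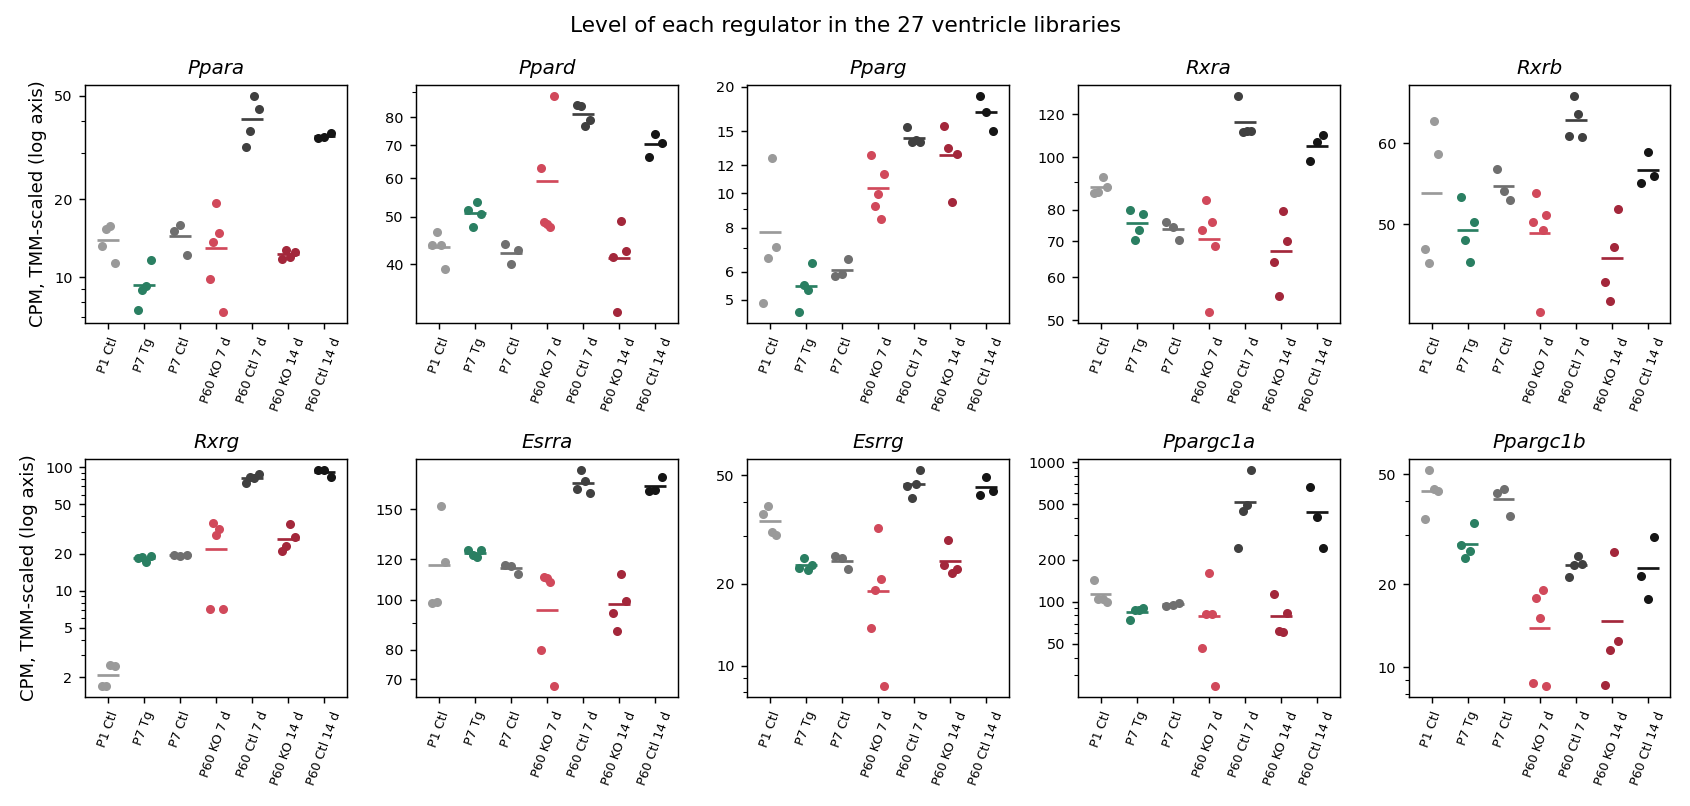
Level of each of the 10 genes in every library, in CPM after TMM scaling on log axes that differ between panels. Points are libraries and bars group means; Rxrg ranges from 1.69 CPM at P1 to 95.7 CPM in a 14-day control, and Ppargc1b is the gene whose P1 and P7 controls lie above its P60 controls.

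Between P1, P7 and P60 the control ventricles gained Rxrg and Ppargc1a transcript and lost Ppargc1b. Rxrg, the RXR form restricted largely to muscle and brain, had 1.70, 1.69, 2.52 and 2.44 CPM at P1, then 19.4, 19.2 and 19.5 CPM at P7, and at P60 a lowest, median and highest value of 74.5, 83.4 and 95.7 CPM. The 3 ages did not overlap. Its log2 fold change was 3.21 ± 0.13 SE for P7 over P1 (9.24-fold, adjusted p = 9.6e-10) and 2.15 ± 0.11 for P60 over P7 (4.45-fold, adjusted p = 5.1e-10). Ppargc1a had 145, 104, 104 and 100 CPM at P1, 93.9, 95.8 and 97.9 at P7, and 244, 448 and 885 CPM as lowest, median and highest of 7 controls at P60. P60 stood above both neonatal ages in every library (P60 over P7, 2.31 ± 0.36, adjusted p = 4e-05), whereas P7 over P1 was not called (-0.24 ± 0.35, adjusted p = 0.67). Every P1 library still lay above every P7 library, and that SE comes from a fit that includes the widely spread P60 controls. Ppargc1b, the constitutive sister coactivator, had 34.5, 51.9, 44.2 and 43.4 CPM at P1, 42.6, 44.0 and 35.2 at P7, and 17.6, 23.4 and 29.7 CPM as lowest, median and highest at P60. It fell between P7 and P60 (-0.81 ± 0.14, adjusted p = 0.00012).

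From P1 to P7, 1 member was called higher, against 12.3% of all 16388 genes tested, and 2 lower, against 11.2% (23.5% in either direction). Beside Rxrg these were Rxra (-0.26 ± 0.07, adjusted p = 0.019) and Esrrg, an estrogen-related receptor of oxidative muscle (-0.48 ± 0.10, adjusted p = 0.003). The Rxra call was lost without library 2 or library 3 of the P7 controls and without the low-count filter (adjusted p = 0.052), and both were lost in a fit of all 27 libraries. Under scaling by total counts 41.0% of all calls between P1 and P7 were higher at P7, against 52.4% with TMM. From P7 to P60, 8 members were called higher, against 33.3% of all genes, and 1 lower, against 36% (69.3% in either direction). Ppara, the main PPAR of heart and liver, had 13.9 ± 2.07 CPM at P1, 14.4 ± 1.98 at P7 and 38.3 ± 6.48 at P60 (SD, n = 4, 3 and 7), and rose by 1.39 ± 0.15 after P7. Pparg, the PPAR of fat cells, rose by 1.35 ± 0.22, with 15.5 ± 1.84 CPM at P60 against 6.09 ± 0.38 CPM at P7. Ppard, expressed in most tissues, rose by 0.83 ± 0.07. Rxra and Esrra rose by 0.58 ± 0.07 and 0.54 ± 0.12, but under scaling by total counts those differences were -0.025 and -0.06, and the P60 controls hold 26.04% to 29.6% of counts in mitochondrially encoded genes against 15.3% to 15.9% at P7. Total count scaling shifted the median of all genes in this comparison to -0.65, against -0.05 with TMM, and the share of calls that were higher to 18.002%, against 48.1%. Rxrb was not called (0.13 ± 0.09, adjusted p = 0.23) and had -0.47 under total count scaling. White adipocyte markers summed to 2.66 to 21.3 CPM in the 7-day and 5.29 to 12.9 CPM in the 14-day controls of P60, against 0 to 2.44 CPM in P7 controls, where Retn was at 0, and 3 of the 4 tested were called higher at P60. Their part in the rise of Pparg was not tested. All 7 cardiomyocyte markers and all 6 macrophage markers were called higher at P60 than at P7 as well, and 4 of 6 fibroblast and 4 of 6 endothelial markers lower. Between P1 and P60, 8 members were called higher, against 35.1% of all genes, and 1 lower, against 38.6% (73.7% in either direction), but 3 higher and 4 lower under total count scaling. Rxrg had the largest difference over this span (5.36 ± 0.12, 41.1-fold, adjusted p = 1.2e-13). Rxra, Esrra and Esrrg were higher by 0.32, 0.51 and 0.43, with -0.34, -0.14 and -0.23 under total count scaling.

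**Figure D2:**
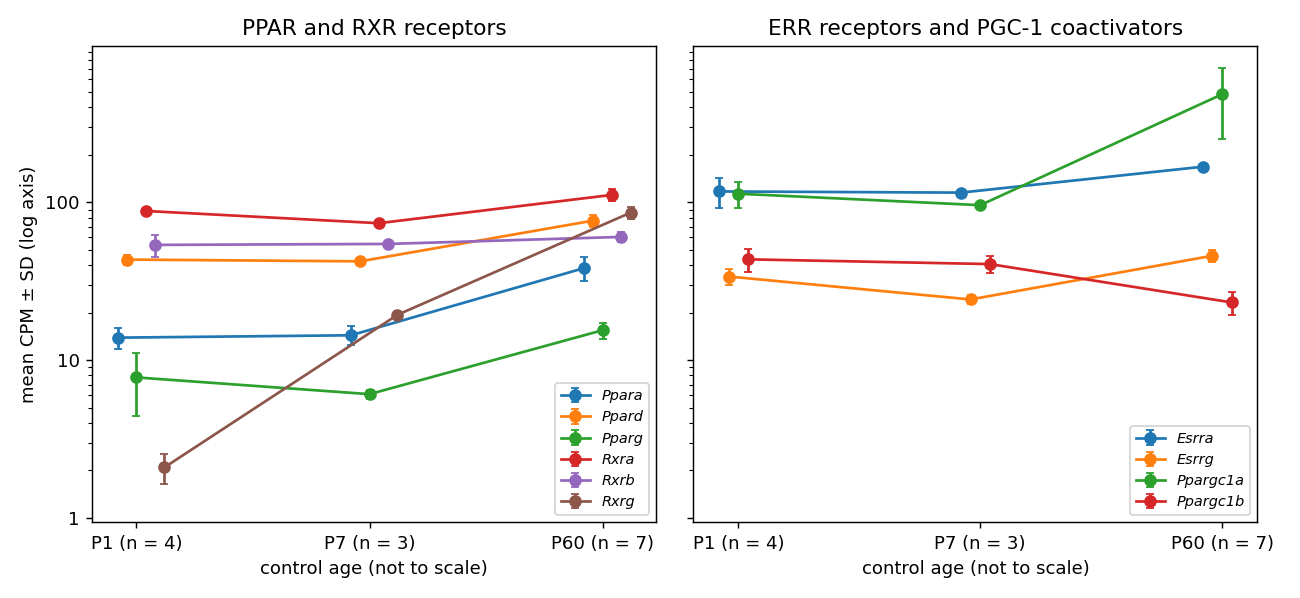
Mean CPM ± SD of the 10 genes in control ventricle at P1 (n = 4), P7 (n = 3) and P60 (n = 7, both control groups), on a log axis with ages evenly spaced. Rxrg climbs from 2.09 to 86.0 CPM, and Ppargc1a is at 113, 95.9 and 484 CPM at P1, P7 and P60. Ppargc1b is the one line that ends lower than it began.

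The make-up of the RXR and PGC-1 families differed between the ages. Rxrg was 2.95% ± 0.39 of summed RXR transcript per kilobase at P1, 23.7% ± 0.75 at P7, and 48.9% ± 2.63 and 54.3% ± 2.59 in the P60 controls of 7 and 14 days. Summed RXR was 30.6 ± 2.77, 35.6 ± 0.95, 72.8 ± 1.07 and 73.3 ± 2.73 RPKM in the same 4 groups, so the adult RXR pool was about as much Rxrg as Rxra and Rxrb together. Ppargc1a made up 60.9% ± 7.41 of PGC-1 transcript at P1, 58.9% ± 3.33 at P7 and 91.9% ± 3.40 and 90.5% ± 6.36 in the P60 controls. In the libraries labelled KO, Rxrg was 25.8% ± 13.8 of RXR at 7 days and 32.2% ± 3.02 at 14 days (n = 5 and 4), against the 48.9% and 54.3% of their controls. Ppargc1a was 74.5% ± 8.17 and 75.9% ± 12.8 of PGC-1 there, against 91.9% and 90.5% in controls. Without libraries 1 and 5 the 7-day shares were 35.9% ± 2.07 for Rxrg and 77.4% ± 7.92 for Ppargc1a (n = 3). Of the sum of the members Esrra and Esrrg, Esrra was between 82.6% and 88.3% on average in every group. With Esrrb, the third estrogen-related receptor and not one of the 10, added to the sum, Esrra was 76.6% ± 4.17 in the libraries labelled KO at 7 days against 68.6% ± 1.85 in controls, and 68.6% ± 4.86 against 68.4% ± 1.27 at 14 days.

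**Figure D3:**
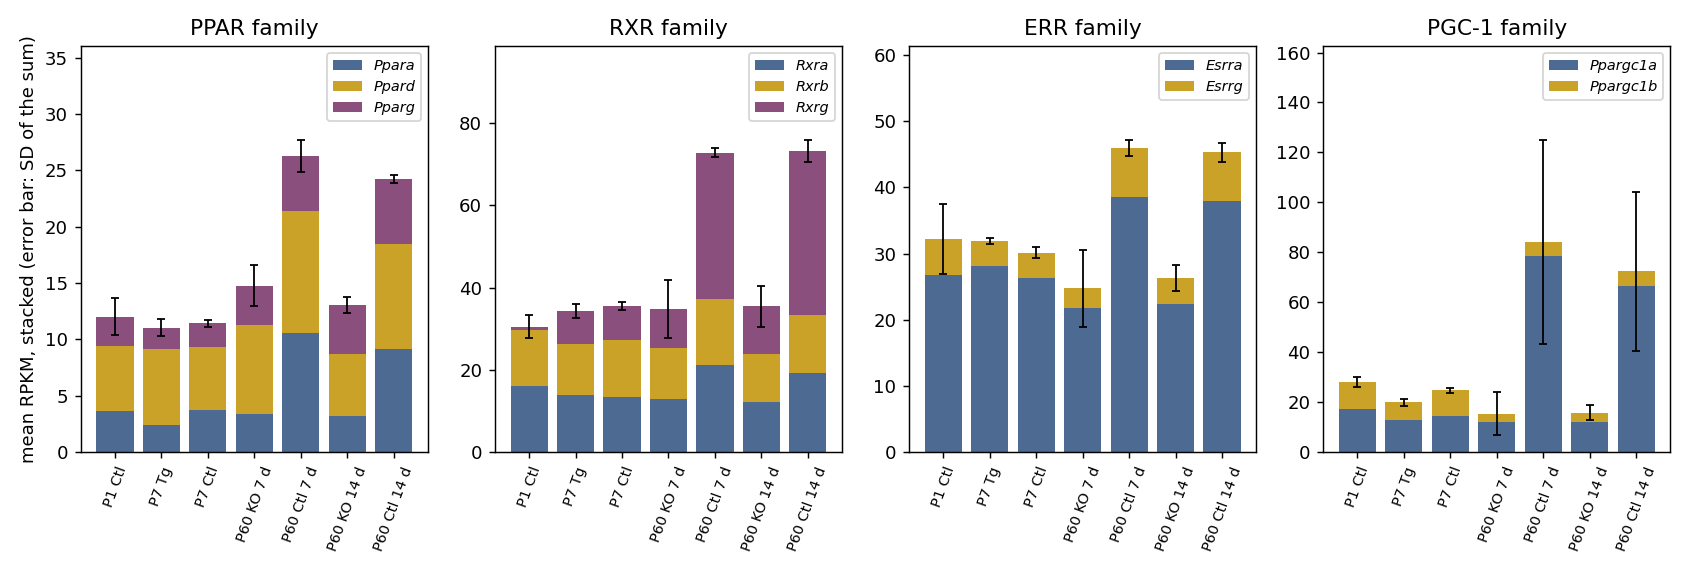
Mean RPKM of the members of each family (ERR is Esrra and Esrrg), stacked, in the 7 groups, with the SD of the family sum as error bar. Summed RXR is 34.8 and 35.5 RPKM in the libraries labelled KO against 72.8 and 73.3 in their controls, and summed PGC-1 is 15.5 and 15.8 against 84.3 and 72.3.

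At 7 days after knockout, 9 of the 10 regulators were lower in the libraries labelled KO than in controls and none was higher, where 50.7% of all 15167 genes tested were called, 24.3% lower and 26.4% higher. The median log2 fold change of the 10 genes was -0.80, against 0.03 over all genes. Under scaling by total counts 5 members were called, with Pparg, Rxra, Rxrb and Ppargc1b lost, the median of all genes was 0.45, and the share of all calls that were higher was 83.5%, against 52.0% with TMM. Mitochondrially encoded genes held 14.7% to 18.3% of counts in the libraries labelled KO against 26.04% to 29.2% in controls, and 17.4% to 21.6% against 26.3% to 29.6% at 14 days. Their part in the results was not tested. Ppargc1a fell furthest. It had 47.1, 81.3, 161, 82.0 and 25.0 CPM in the libraries labelled KO, against 245, 448, 490 and 885 in controls, with no overlap (-2.72 ± 0.50, 6.57-fold, adjusted p = 0.0012 by edgeR's quasi-likelihood test with Benjamini-Hochberg adjustment). Without libraries 1 and 5 the value was -2.26 ± 0.41 (adjusted p = 0.0013). How many of all genes lack overlap between libraries labelled KO and controls at 7 days was not counted. Ppargc1b had 8.77, 17.7, 15.1, 19.1 and 8.55 CPM against 21.2, 23.4, 25.3 and 23.7, again without overlap (-0.77 ± 0.24, adjusted p = 0.019). Its call was lost without control library 3 (-0.71, adjusted p = 0.054), and without libraries 1 and 5 the value was -0.43 ± 0.11 (adjusted p = 0.0072).

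Among the receptors at 7 days, Rxrg and Ppara changed most. Rxrg had 7.14, 35.6, 28.2, 31.8 and 7.12 CPM in the libraries labelled KO, against 74.5, 83.4, 82.0 and 87.6 in controls (-1.91 ± 0.45, 3.75-fold, adjusted p = 0.0051). Libraries 1 and 5 were the 2 lowest and set much of the spread; without them the value was -1.36 ± 0.10 (adjusted p = 4.4e-06). Ppara had 9.87, 13.7, 19.3, 14.8 and 7.32 CPM against 31.8, 36.6, 50.004 and 44.3 (-1.66 ± 0.25, 3.15-fold, adjusted p = 0.00036), and no library of one group reached the other. Esrrg had 13.7, 19.0, 32.05, 20.8 and 8.43 CPM against 45.5, 41.4, 46.6 and 52.4 (-1.31 ± 0.30, adjusted p = 0.004). Esrra, the most abundant estrogen-related receptor, had 79.8, 111, 110, 108 and 67.9 CPM against 165, 179, 170 and 162 (-0.83 ± 0.15, adjusted p = 0.001). Libraries 1 and 5 were the lowest for these 4 receptors, without overlap between groups. Without them the values were -1.35 ± 0.18 for Ppara, -0.95 ± 0.17 for Esrrg and -0.62 ± 0.07 for Esrra, all still called. Rxra, the general RXR partner, had 51.8 to 83.3 CPM against 111 to 130 (-0.72 ± 0.13, adjusted p = 0.0011). Pparg had 8.48 to 12.8 CPM against 13.9 to 15.4 (-0.48 ± 0.13, adjusted p = 0.011), beside white adipocyte markers at 2.65 to 7.81 CPM in the libraries labelled KO and 2.66 to 21.3 in controls. Rxrb fell by 0.37 ± 0.09 (adjusted p = 0.0059), although its difference was 0.05 under total count scaling. Without libraries 1 and 5 Rxra had -0.72 ± 0.15, Pparg -0.64 ± 0.10 and Rxrb -0.39 ± 0.10, all called. Ppard, the receptor that missed the threshold, had 62.9, 48.8, 48.4, 47.6 and 88.5 CPM against 84.7, 84.4, 76.8 and 78.9 (-0.46 ± 0.18, adjusted p = 0.051). There the order was reversed, with libraries 5 and 1 the highest of the libraries labelled KO. It was called without library 5 (-0.64 ± 0.10, adjusted p = 0.00078) and without libraries 1 and 5 (-0.75 ± 0.07, adjusted p = 1.6e-05). With all libraries kept it was called by DESeq2 (adjusted p = 0.041), with DESeq2 size factors (0.045), without the low-count filter (0.043) and in the fit of all 27 libraries (0.0063).

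At 14 days 8 of the 10 were called lower and none higher, against 22.4% and 21.8% of 14976 genes tested (44.2% in either direction), with a median of -0.78 against 0.01 over all genes. Under total count scaling 6 were called, with Rxra lost (-0.28, adjusted p = 0.097), the median of all genes was 0.39, and 81.9% of calls were higher, against 49.4%. Ppargc1a had 114, 61.5, 60.7 and 83.1 CPM in the libraries labelled KO, against 668, 406 and 244 in controls (-2.47 ± 0.31, 5.54-fold, adjusted p = 0.00014). Rxrg had 21.2, 22.9, 34.4 and 27.1 CPM against 95.7, 95.2 and 83.3 (-1.80 ± 0.15, 3.48-fold, adjusted p = 1e-05). Ppara had 11.7, 12.8, 11.9 and 12.5 CPM against 34.4, 34.7 and 36.1 (-1.53 ± 0.09, 2.88-fold, adjusted p = 1.1e-06). None of these 3 overlapped, and the 4 libraries labelled KO were close to each other for Ppara. Ppard had 41.4, 31.9, 49.0 and 42.6 CPM against 66.2, 74.1 and 70.8 (-0.78 ± 0.13, adjusted p = 8e-04). Esrrg (-0.90 ± 0.11), Esrra (-0.77 ± 0.10) and Rxra (-0.65 ± 0.12) were lower without overlap as well. How many of all genes lack overlap between these groups was not counted. Rxrb fell by 0.29 ± 0.09 (adjusted p = 0.026), but this call was lost without any one of libraries 6 and 7 labelled KO and control libraries 6 and 7, and without the filter on low counts, and its difference was 0.08 under total count scaling. Ppargc1b had 8.65, 11.5, 26.1 and 12.5 CPM against 21.3, 17.6 and 29.7, and was not called (-0.65 ± 0.33, adjusted p = 0.14). Library 8 labelled KO held the highest of its 4 values, and without it the difference was -1.08 (adjusted p = 0.0013). Pparg had 15.5, 13.5, 9.48 and 12.9 CPM against 18.9, 16.9 and 15.01 and was not called (-0.41 ± 0.16, adjusted p = 0.061), except without library 6 labelled KO or without the filter on low counts. Ppargc1b was also called without that filter (-0.63, adjusted p = 0.02).

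**Figure D4:**
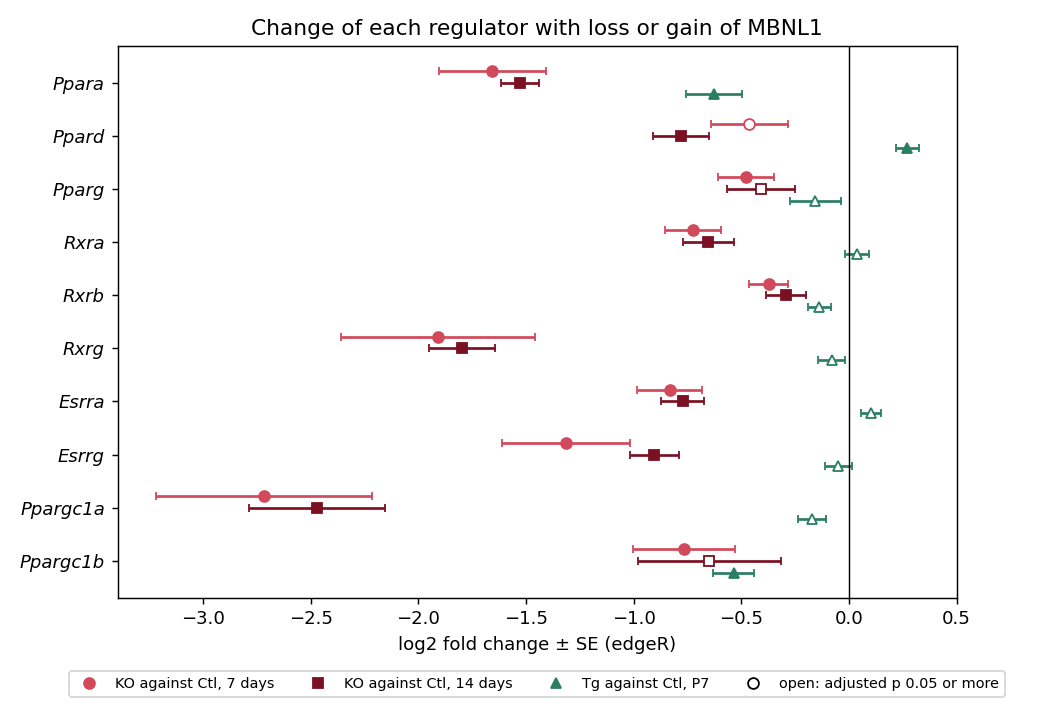
Log2 fold change ± SE of each regulator in the libraries labelled KO against their controls at 7 days (circles) and 14 days (squares) and in Tg against P7 controls (triangles), from edgeR. Filled symbols have an adjusted p under 0.05; all KO values are below 0 with TMM scaling, with Ppargc1a at -2.72 and -2.47, while Rxrb is at 0.05 and 0.08 under total count scaling and Tg values lie between -0.62 and 0.27.

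The size of the response was compared between the times over the 16 libraries of P60. None of the 10 genes was called, against 0% of all 15951 genes tested, where 1662 genes had an unadjusted p under 0.05 and DESeq2 called 141. The largest differences, 14 days minus 7 days, were 0.43 ± 0.37 for Esrrg and -0.29 ± 0.25 for Ppard (adjusted p = 0.71 for both), and without libraries 1 and 5 Ppard had 0.0019. The SE of this difference was 0.67 for Ppargc1a and 0.56 for Rxrg, so changes of that size on the log2 scale, and larger ones, could go uncalled. The controls of 14 and 7 days themselves were not called different in any of the 10 genes, against 0.0305% of all genes (0.0122% higher and 0.0183% lower). Their ranges still did not overlap for Ppard (-0.22 ± 0.07), Rxra (-0.16 ± 0.07) and Rxrb (-0.18 ± 0.10), all lower at 14 days. Pparg (0.22 ± 0.23) and Rxrg (0.14 ± 0.11) were higher at 14 days, with overlap.

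Because cardiomyocyte markers also fell, each gene was set against them, a calculation added after the values had been seen. Per 1000 counts of the 7 markers, Ppargc1a stood at 1.82 to 6.27 in the libraries labelled KO at 7 days against 4.93 to 17.2 in controls, and at 1.79 to 3.27 against 4.62 to 12.9 at 14 days. The ratio of means was 0.321 and 0.296, and the ranges overlapped at 7 days only. Rxrg stood at 0.406 to 1.29 against 1.502 to 1.74, and at 0.609 to 1.01 against 1.58 to 1.85, ratios of 0.537 and 0.475 without overlap at either time. Ppara had ratios of 0.700, with overlap, and 0.573, without. The other 7 genes had ratios between 0.870 and 1.88, and Rxrb was higher per marker count without overlap at both times (1.86 and 1.35), as was Esrra at 7 days (1.27). Without libraries 1 and 5 the 7-day ratios were 0.390 for Ppargc1a, 0.708 for Rxrg, 0.720 for Ppara, 1.38 for Rxrb, 1.34 for Ppargc1b and 1.19 for Esrra, with overlap for Ppargc1a and Ppara and not for the other 4. Of the 7 markers, 6 were themselves called lower at each time. Macrophage markers summed to 695 to 1125 CPM in the libraries labelled KO against 262 to 294 in controls at 7 days, with 6 of 6 called higher, and fibroblast markers to 3691 to 9421 against 1047 to 1266, with 5 of 6 higher. At 14 days macrophage markers were at 419 to 633 CPM against 210 to 332 and fibroblast markers at 4148 to 5414 against 1211 to 1292. Endothelial markers summed to 444 to 634 CPM against 763 to 812 at 7 days, with 5 of 6 called lower, and 601 to 804 against 856 to 881 at 14 days, with 3 of 6 lower. Of the brown adipocyte markers, Elovl3 was at 0 in all libraries labelled KO at 14 days and Ucp1 in all their controls. Their sum was 181 to 277 CPM against 487 to 643 at 7 days. Only 2 could be tested there, and they went opposite ways, Cox8b lower (-1.50 ± 0.16) and Cidea higher (0.57 ± 0.15). The sum is therefore no measure of brown fat cells. The part of these shifts in the fall of the 10 genes was not tested beyond the ratios given.

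In Tg ventricle at P7, 1 member was higher and 2 were lower than in controls, against 14.9% and 15.8% of 15893 genes tested (30.7% in either direction). Ppara had 7.47, 8.90, 9.23 and 11.6 CPM in Tg, against 15.03, 15.9 and 12.1 in controls (-0.62 ± 0.13, 1.54-fold, adjusted p = 0.0028). Ppargc1b had 27.7, 24.8, 26.3 and 33.2 CPM against 42.6, 44.0 and 35.2 (-0.54 ± 0.09, 1.45-fold, adjusted p = 9e-04). Ppard had 51.6, 47.6, 53.7 and 50.7 CPM against 44.0, 39.99 and 42.8, and was higher (0.27 ± 0.05, 1.21-fold, adjusted p = 0.0018). Groups did not overlap for these 3, but all 3 calls were lost in a fit of all 27 libraries, where 973 genes were called instead of 4878 (adjusted p = 0.09 for Ppara, 0.39 for Ppard and 0.31 for Ppargc1b). Ppargc1a, with 74.5, 88.1, 87.1 and 90.4 CPM against 93.9, 95.8 and 97.9, did not overlap either and was not called (-0.17 ± 0.07, adjusted p = 0.063), but was called under total count scaling, without the low-count filter and by DESeq2 (adjusted p = 0.028 to 0.046). Rxrb had 45.9 to 53.2 CPM in Tg against 52.9 to 56.6, with overlap, and was not called (-0.14 ± 0.05, adjusted p = 0.067 by edgeR). It was called in 2 of 14 alternatives. Rxrg had 18.3, 18.9, 17.0 and 19.1 CPM against 19.4, 19.2 and 19.5 (-0.08 ± 0.06, adjusted p = 0.37). Esrra had 121 to 125 CPM in Tg against 112 to 117 (0.10 ± 0.05, adjusted p = 0.12 by edgeR's quasi-likelihood test). Groups did not overlap for these 2 genes either, although neither was called. How many of all genes lack overlap between Tg and controls was not counted. Per 1000 cardiomyocyte marker counts all 3 called genes remained apart. Ppara stood at 0.226 to 0.357 in Tg against 0.380 to 0.494 in controls. Ppargc1b stood at 0.838 to 1.02 against 1.10 to 1.40, and Ppard at 1.559 to 1.997 against 1.18 to 1.45. Cardiomyocyte markers summed to 26870 to 33005 CPM in Tg against 30412 to 33806, and macrophage markers to 107 to 133 against 63.8 to 84.7. Fibroblast markers summed to 6070 to 7073 CPM in Tg against 4942 to 5818 in controls, with 4 of 6 called higher. The part of these markers in the Tg results was not tested.

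Genes acting with these regulators were counted in the same comparisons, where 26.4% of all genes were called higher and 24.3% lower at 7 days, and 21.8% and 22.4% at 14 days. Counts of coactivators, RXR partners, corepressors and kinases are to be read against those shares. Esrrb had 13.2, 31.5, 27.8, 32.8 and 13.1 CPM in the libraries labelled KO at 7 days against 63.4, 59.0, 65.3 and 57.1 in controls, lowest again in libraries 1 and 5 (-1.38 ± 0.27, adjusted p = 0.0019), and was lower at 14 days (-0.73 ± 0.11). Of 12 coactivators, 1 was higher and 5 lower at 7 days, and 0 higher and 5 lower at 14 days, which became 4 and 2, then 3 and 2, under total count scaling. Perm1, a muscle regulator that acts downstream of PGC-1 and ERR, averaged 108 CPM in the libraries labelled KO at 7 days against 437 in controls (-2.02 ± 0.38, adjusted p = 0.0013) and changed by -1.71 ± 0.10 at 14 days. Lpin1, which coactivates PPAR alpha, changed by -1.43 ± 0.20 and -1.44 ± 0.15, and was higher in Tg (0.99 ± 0.06, adjusted p = 3.9e-07). Pprc1, the third PGC-1 relative, was called higher at 7 days (0.84 ± 0.25, adjusted p = 0.017), but not without control library 1 (adjusted p = 0.05). Mitochondrial transcription partners had 5 of 8 lower and none higher at both times, though 3 lower and 3 higher at both under total count scaling. Among those lower at 7 days were Tfb1m (-0.94 ± 0.21), Polrmt, the mitochondrial RNA polymerase (-0.82 ± 0.08), and Tfam, which packages mitochondrial DNA (-0.81 ± 0.12). RXR partner receptors had 4 of 10 higher and 3 lower at 7 days, and 1 higher and 2 lower at 14 days. The thyroid hormone receptor Thrb was lower (-1.16 ± 0.15 and -0.90 ± 0.10) and the retinoic acid receptor Rara higher (0.78 ± 0.16 and 0.63 ± 0.18), where the 14-day call for Rara was lost without control library 5 (adjusted p = 0.06) or 6 (0.054). Corepressors had 2 of 7 higher and 1 lower at 7 days, then 1 and 1, and under total count scaling 4 and 0 at both times. Kinases and factors acting on PGC-1 alpha had 2 of 13 higher and 2 lower, then 2 and 3, and under total count scaling 8 higher and 1 lower at 7 days. Prkab2, a subunit of the energy sensor AMPK, was higher at both times (1.33 ± 0.14 and 1.42 ± 0.18) and the mitochondrial deacetylase Sirt3 lower (-1.33 ± 0.26 and -1.23 ± 0.12).

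Most target genes of the receptors were lower in the libraries labelled KO, where 24.3% of all genes were called lower at 7 days and 22.4% at 14 days. All 21 ERR targets were lower at 7 days (median -1.23, against 0.03 over all genes) and all 21 at 14 days (median -1.03, against 0.01). Examples at 7 days were Ckmt2, the mitochondrial creatine kinase of muscle (-1.82 ± 0.10, adjusted p = 2.2e-06), Ldhb, the heart-type lactate dehydrogenase subunit (-1.56 ± 0.14), and Slc25a4, the ADP/ATP carrier (-1.47 ± 0.12). Of 28 PPAR targets, 23 were lower at each time, with 3 higher at 7 days and 1 at 14 days (medians -1.36 and -1.56). The 7 cardiomyocyte markers had medians of -1.25 and -0.71, with 6 called lower at each time. Acot1, a fatty acyl-CoA thioesterase, averaged 3.77 CPM in the libraries labelled KO at 7 days against 18.4 in controls (-2.29 ± 0.38), and 1.73 against 15.6 at 14 days (-3.18 ± 0.20). Acadm, the medium-chain acyl-CoA dehydrogenase, averaged 278 CPM against 1079 at 7 days (-1.97 ± 0.13). Plin5, a lipid droplet protein of oxidative tissue, and Acaa2, a thiolase of fat oxidation, changed by -2.27 ± 0.18 and -2.12 ± 0.19 at 14 days. Angptl4, an inhibitor of lipoprotein lipase, went the other way at 7 days, with a lowest value of 15.5, a median of 41.8 and a highest of 102 CPM in the libraries labelled KO against 3.66, 9.86 and 16.4 in controls (2.52 ± 0.64, adjusted p = 0.0076). The ranges touched, and it was not called at 14 days (0.54 ± 0.46, adjusted p = 0.37). Cpt1a and Plin2, the other 2 called higher at 7 days, lie outside the naming rule and were picked after their values were seen. Both counts of lower ERR targets were 21 in every alternative run, and those of PPAR targets 22 to 24.

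In Tg, where 15.8% of all genes were called lower and 14.9% higher, 17 of 28 PPAR targets were lower and 3 higher (median -0.27, against -0.0016 over all genes), and 12 of 21 ERR targets were lower and 1 higher (median -0.20). Acot1 averaged 27.1 CPM in Tg against 61.2 CPM in controls (-1.17 ± 0.07, adjusted p = 3.9e-07) and Angptl4 62.5 against 117 (-0.91 ± 0.12, adjusted p = 0.00014). Ckmt2 was the ERR target that was higher (0.46 ± 0.06, adjusted p = 8.3e-05), while Mdh2 (-0.43 ± 0.05) and Suclg1 (-0.30 ± 0.05), both of the citric acid cycle, were lower. The 7 cardiomyocyte markers had a median of -0.09 in Tg, with 3 called lower and 1 higher. In the fit of all 27 libraries 0 PPAR targets and 5 ERR targets were called lower in Tg. From P7 to P60 in controls, where 33.3% of all genes were higher and 36% lower, all 21 ERR targets were higher (median 0.85, against -0.05), with 14 called higher under total count scaling, and Ckmt2 rose by 2.45 ± 0.11. PPAR targets were mixed, with 17 higher and 5 lower, 5 higher and 8 lower under total count scaling, and 11 higher without any one of 7-day control library 1, 14-day control libraries 5 and 6, and P7 control libraries 1, 2 and 3. All 7 cardiomyocyte markers were called higher from P7 to P60 as well, with a median of 0.73. Lpl, lipoprotein lipase, rose by 2.81 ± 0.20, whereas Angptl4 fell by 3.55 ± 0.79. Angptl4 ranged from 4.59 to 129 CPM among the 4 control libraries of P1.

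**Figure D5:**
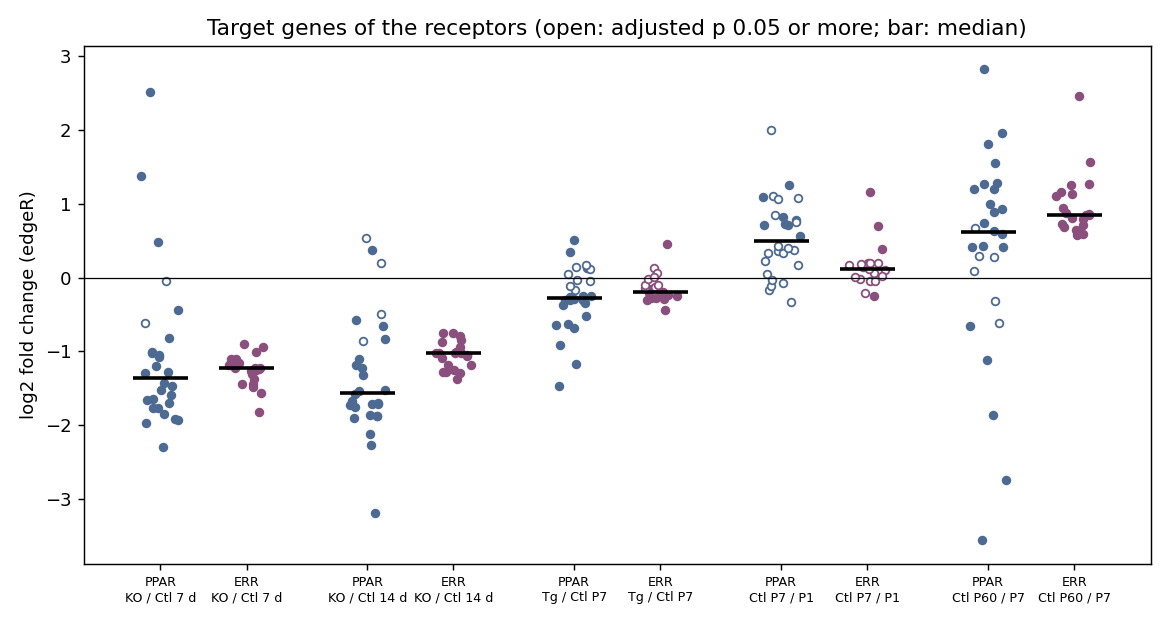
Log2 fold change from edgeR of 28 PPAR target genes (blue) and 21 ERR target genes (purple) in 5 comparisons, with a bar at each median and open symbols for an adjusted p of 0.05 or more. With TMM scaling all ERR targets lie below 0 in both KO comparisons and above 0 from P7 to P60. Angptl4 stands out at 2.52 among the PPAR targets at 7 days. Cardiomyocyte markers, not drawn, have medians of -1.25 and -0.71 in the KO comparisons at 7 and 14 days.

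Over the 27 libraries, which share groups, ages and tissue composition, members were also compared by the Pearson correlation of log2(CPM + 0.5), as a description. Ppara and Ppargc1a had the highest value among the 45 pairs (0.916), followed by Esrrg and Ppargc1a (0.876) and Esrra and Ppargc1a (0.830). Pparg and Ppargc1b had the lowest (-0.540). Among 10554 protein-coding candidates the genes most like each member were Slc25a13 (0.953) and Kcnd2 (0.950) for Ppara, Ndufaf1 (0.933) and Dld (0.930) for Ppargc1a, and Reep5 (0.963) and Lrtm1 (0.955) for Rxrg. Esrra was most like Acsl1 (0.946) and Mcrip2 (0.943), Esrrg like Mtx2 (0.951) and Osbpl1a (0.949), and Ppargc1b like Gm9821 (0.947) and Tle2 (0.946). For Pparg they were Sap30l (0.953) and Sult1a1 (0.948), for Ppard Ncln (0.910) and Klhl21 (0.908), for Rxra Twnk (0.919) and Polr1a (0.911), and for Rxrb Zfp691 (0.889) and Iba57 (0.855).

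The loci on GRCm38 from GENCODE M21 were, for the PPAR genes, chromosome 15 from 85734983 to 85802819 on the plus strand (Ppara, ENSMUSG00000022383), chromosome 17 from 28232700 to 28301474, plus (Ppard, ENSMUSG00000002250), and chromosome 6 from 115360951 to 115490399, plus (Pparg, ENSMUSG00000000440). Rxra (ENSMUSG00000015846) lies on chromosome 2 from 27676440 to 27762957, Rxrb (ENSMUSG00000039656) on chromosome 17 from 34031812 to 34038399 and Rxrg (ENSMUSG00000015843) on chromosome 1 from 167598384 to 167639623, all on the plus strand. Esrra (ENSMUSG00000024955) lies on chromosome 19 from 6910977 to 6921813, minus, and Esrrg (ENSMUSG00000026610) on chromosome 1 from 187608791 to 188214885, plus. Ppargc1a (ENSMUSG00000029167) lies on chromosome 5 from 51454250 to 51567726 and Ppargc1b (ENSMUSG00000033871) on chromosome 18 from 61298136 to 61400431, both minus. Exons of Esrra overlap those of Trmt112 and Mir6990 over 164 bases, 3.74% of its exon length, and without a stated strand setting those reads cannot be told apart. The exons of the other 9 overlap no annotated gene.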

How the data were processed

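Total RNA of mouse ventricle was extracted with TRIzol and RNeasy columns and sequenced as BGI DNBseq libraries, per the labels' protocols. The authors deposited raw counts per Ensembl gene in 27 columns, mapped to samples by their names. The submitters' processing notes name STAR, featureCounts, Salmon, DESeq2, GRCm38 and mm10, without role or order. The annotation release and strand setting are not given in the sources used here. Of 55487 identifiers, 55227 were in GENCODE M21 and 260 were not.

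Counts were filtered with filterByExpr, scaled by TMM and tested with edgeR 4.0.16 (quasi-likelihood test, R 4.3.3) within the libraries of each comparison (KO and control at each time, the 16 P60 libraries for the difference between times, Tg and control at P7, and the 14 controls for age). P-values were Benjamini-Hochberg adjusted over all genes tested, and the SE of a log2 fold change was obtained by dividing its size by √F. Two-sided tests were used throughout. RPKM used merged exon length. Between 40 replicate pairs, chi-square per degree of freedom was 6.34 to 147, so all libraries were counted separately. Total counts of 21929347 to 25675115 set the counting precision, and 3 counts were taken as the floor. The fits were tested on simulated data. Alternatives were DESeq2 size factors, total count scaling, no filter on low counts, DESeq2 1.42.0, a fit of all 27 libraries, each replicate left out, the replicate block, and libraries 1 and 5 labelled KO at 7 days left out.

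The 10 members, the gene lists, the marker lists and the tests were chosen with earlier results of these data known. Named were the members, Mbnl1 and Esr1, at most 3 called genes per list and comparison with the largest change and a mean of at least 5 CPM, and per member the 2 most correlated protein-coding genes. Esrrb, Cpt1a, Plin2, Cox8b and Cidea, the per-marker ratios, the shares with Esrrb, the fits of paired libraries and the TGACGT search were added after values or sequences were seen. A gene that this rule also names is not reported here.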

Additional observations from a re-analysis of the deposited data

Results flagged for a closer look

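Of 50 gene and group pairs with 4 or 5 libraries, 3 held a library far from the others of its group, where chance gives about 1 in 20. Rxra had 130 CPM in 7-day control library 1, against 112 CPM in the nearest and 111 CPM in the lowest of the other 3, a gap of 0.968 of the whole range. Pparg had 15.4 CPM in the same library, against 14.2 CPM in the nearest and 13.9 CPM in the lowest, a gap of 0.853. Ppargc1a had 145 CPM in P1 control library 1, against 104 CPM in the nearest and 100.1 CPM in the lowest, a gap of 0.904. All 3 gaps exceed Dixon's 95% critical value for a group of this size, and all 3 were the highest of their group.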

How the results depend on the processing

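Of 1510 values for single members under alternatives, 1412 kept direction and side of the threshold, 22 lost their call, 22 gained one and 54 changed sign. The cause was not tested. Genes called in the difference between times (0) became 2 under total count scaling, 13 without the low-count filter, 141 by DESeq2, 3 without libraries 1 and 5 labelled KO at 7 days, 52 in the fit of all 27 libraries and 0 to 21 with 1 library left out. Those between 14-day and 7-day controls (5) became 37 without the filter, 72 by DESeq2, 3 with all 27 and 2 to 19 with 1 left out. In Tg against control, 4878 genes and 3 members became 973 and 0 with all 27, and 5 members under total count scaling. At 7 days 9 members became 5 under total count scaling. From P1 to P7, 3 members became 1 with all 27, and 3844 genes became 2508 to 4492 with 1 left out.

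Under total count scaling the sign changed for Ppara (-0.0058) and Rxrb (-0.036) in P7 over P1. It changed in P60 over P7 for Rxra (-0.025), Rxrb (-0.47), Esrra (-0.062), Tbl1xr1 (-0.035), Ncor1 (-0.28), Sirt3 (-0.0054) and Prkaa2 (-0.17), and in P60 over P1 for Rxra (-0.34), Rxrb (-0.51), Esrra (-0.14) and Esrrg (-0.23). It changed in KO over control for Rxrb (0.050 at 7 days, 0.083 at 14), Hdac3 (0.0037 at 7 days) and Mbnl1 (0.034 at 14 days). Without libraries 1 and 5 the difference between times changed sign for Ppara (-0.14), Ppard (0.0019), Rxrg (-0.40), Esrra (-0.12), Ppargc1a (-0.18) and Ppargc1b (-0.18), and Mbnl1 at 7 days was -0.21.

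With 1 library left out, uncalled values crossed 0. The difference between times ranged from -0.018 to 0.14 for Esrra, -0.014 to 0.21 for Pparg, -0.12 to 0.71 for Ppargc1a, -0.29 to 0.38 for Ppargc1b, -0.0019 to 0.18 for Rxra and -0.095 to 0.37 for Rxrg. P7 over P1 ranged from -0.10 to 0.13 for Esrra, -0.035 to 0.16 for Ppara, -0.081 to 0.0060 for Ppard and -0.050 to 0.11 for Rxrb. The control times ranged from -0.12 to 0.0093 for Esrrg, -0.69 to 0.14 for Ppargc1a and -0.29 to 0.12 for Ppargc1b, and Mbnl1 at 7 days from -0.11 to 0.16.

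Deviations from group means correlated from -0.465 to 0.228 between same-numbered libraries. The labels do not say what a shared number means, and these correlations in small groups cannot decide it. The replicate block used only libraries with a partner, 8 of 9 at 7 days, 4 of 7 at 14 days and 6 of 7 at P7, so it changes the libraries as well. With the block, members called were 10 at 7 days, 9 at 14 days, 3 in Tg, 2 in P7 over P1, 10 in P60 over P7 and 9 in P60 over P1, and the same libraries without the block, a fit added after the data were seen, gave the same 6 counts. P7 over P1 had 1624 genes called with the block and 2800 without. Ppargc1b at 14 days was -1.21 with the block and -1.24 without (adjusted p = 0.00059 and 0.0031), Rara 0.29 in both (0.17 and 0.13), Mbnl1 -0.19 in both (0.18 and 0.14), and Pprc1 at 7 days 0.65 with the block (0.069). The sign changed with the block for Mbnl1 at 7 days (-0.041) and, in P7 over P1, for Ppara (-0.040, and -0.037 without the block) and Esrra (0.014). For the difference between times, a block fit of 12 libraries, also added later, called 0 genes, and the sign changed for Rxra (-0.12), Rxrb (-0.0053), Rxrg (-0.14), Esrra (-0.14) and Ppargc1b (-0.50). Without the block these 12 libraries gave Ppara -0.0095, Rxra -0.13, Rxrb -0.011, Rxrg -0.32, Esrra -0.15 and Ppargc1b -0.58. No paired analysis was possible between control times because they share no numbers.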
